A study of Mus musculus with 24 samples.

Results

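The genes described here are 10 genes of the integrated stress response, among them Ddit4. They were chosen by symbol, with earlier results of these data known, as Atf4, Ddit3, Atf5, Trib3, Ppp1r15a, Chac1, Asns, Psat1, Ddit4 and Sesn2. All 10 were found in both deposited count tables, which hold 54658 gene symbols each. RNA was sequenced from 24 libraries to follow the effect of β-nicotinamide mononucleotide (β-NMN), a precursor of NAD+, on gene expression during peritonitis. All animals were male C57BL/6 mice aged 7 to 12 weeks, with no genetic change named, and both treatments were given by intraperitoneal injection, β-NMN at 185 mg/kg per day and the vehicle as saline. In the thioglycollate model, 1 mL of thioglycollate medium was injected to draw leukocytes into the peritoneum. Per the paper, β-NMN or saline was given once daily for 3 days, the first dose together with the thioglycollate. Peritoneal cells of 6 vehicle mice and 6 β-NMN mice were taken on day 3. Those cells were then plated and exposed to E. coli for 6 h in culture, so vehicle and β-NMN cells had both met bacteria, and no unstimulated cells were sequenced here. In the cecal ligation and puncture (CLP) model, in which gut bacteria leak into the abdomen, a single dose given right after surgery preceded the harvest, per the paper. Hearts and lungs of 3 vehicle and 3 β-NMN mice were taken 24 h after surgery, both organs from the same animals. The titles, tissue labels and methods give CLP for these organs, whereas their source labels name thioglycollate-induced peritonitis, and CLP was used. No sham-operated organ is among these libraries, so each comparison is between treatments within a model.

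The integrated stress response is the route by which cells adapt translation and transcription to amino acid shortage, unfolded proteins, heme shortage, double-stranded RNA and mitochondrial damage. The kinases PERK, GCN2, PKR and HRI (genes Eif2ak3, Eif2ak4, Eif2ak2 and Eif2ak1) phosphorylate the initiation factor eIF2, which lowers general translation and raises translation of the transcription factor ATF4. ATF4 then induces genes of amino acid synthesis and uptake, of redox balance and of feedback on the response. Ddit4, also called REDD1, is induced by ATF4 but also by hypoxia, glucocorticoids and DNA damage, and its product restrains the growth kinase complex mTORC1. Because ATF4 is controlled largely at translation, the level of Atf4 mRNA is only part of its regulation, and the libraries do not measure eIF2 phosphorylation or protein.

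Total counts per library were between 31126823 and 112456050 in peritoneal cells, 27319513 and 68523239 in hearts, and 8915366 and 28356786 in lungs. Levels are given as counts per 1000000 of the TMM-scaled library (CPM), and genes were compared with edgeR's quasi-likelihood test, calling those with a Benjamini-Hochberg adjusted p below 0.05 over all genes tested in that comparison. The cell type markers followed the labels: cardiomyocyte markers summed to at least 28700 CPM in every heart and lung epithelial markers to at least 58150 CPM in every lung, and macrophage markers to at least 5620 CPM in every peritoneal library. In both organs the libraries of vehicle replicate 2, which came from the same mouse, lay far from their group. The SD across genes of the log2 difference from the rest of the group was 0.898 in this heart, against 0.443 to 0.606 in the others, and 1.62 in this lung, against 0.473 to 0.923. Changes with treatment in the organs that this mouse moved by over 1.5 times or in sign are therefore also given without it. In peritoneal cells the same SD was between 0.356 and 0.643.

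In peritoneal cells, 9 of the 10 genes fell with β-NMN and Psat1 was not called, as the plot of CPM by library shows. Over all 14985 genes tested, 4187 (27.9%) were called lower and 3546 (23.7%) higher. Because the 10 genes were chosen with earlier results of these data known, their share beside that of all genes is only a description. The median log2 fold change of the 10 genes was −1.05, and that of all genes tested was −0.02. Ddit4 fell furthest, and the other called genes fell between 1.51-fold and 3.87-fold. In bulk cells, fewer cells of a type and less RNA per cell cannot be told apart.

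**Figure D1:**
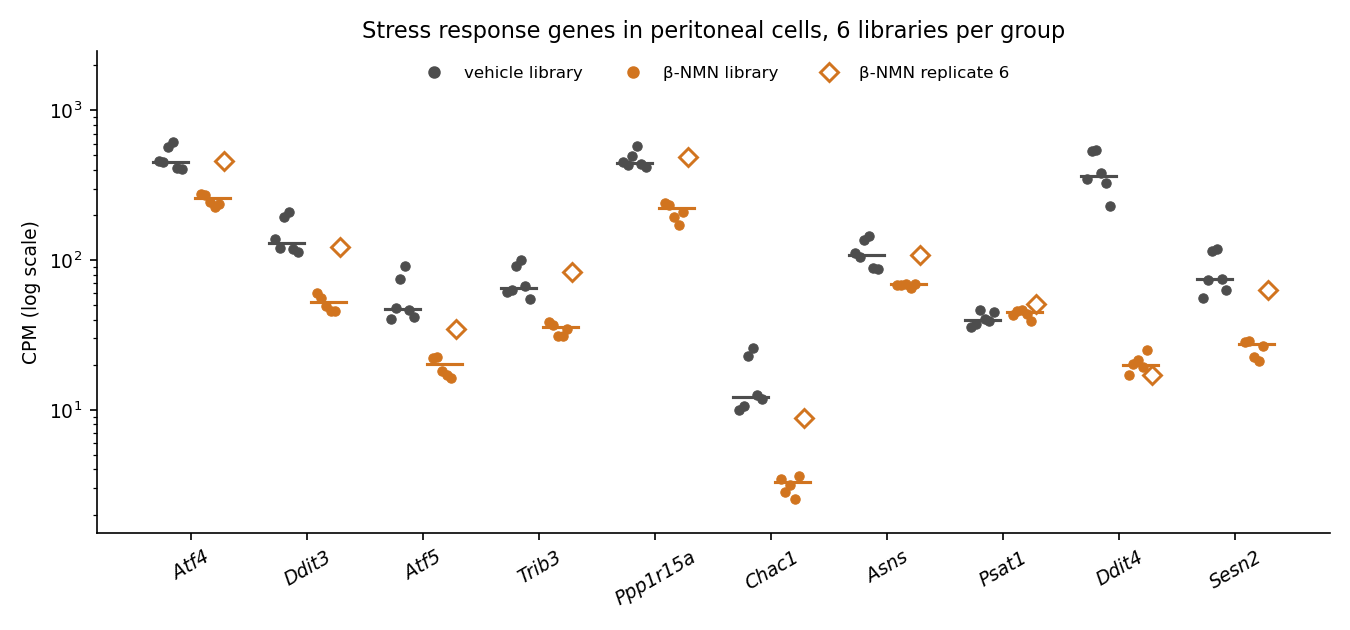
CPM on a log scale of the 10 genes in peritoneal cells, 1 point per library, with 6 vehicle (grey) and 6 β-NMN (orange) libraries per gene and a bar at each group's median. Ddit4 shows the widest gap, with vehicle libraries from 231.5 to 546.7 CPM and β-NMN libraries from 17.16 to 24.99, whereas β-NMN replicate 6 (open diamond) lies near the vehicle libraries at Atf4, Ddit3, Trib3, Ppp1r15a, Asns and Sesn2 but not at Ddit4.

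Ddit4 (chr10:59949669-59951834 of GRCm38, minus strand) had 231.5 CPM in the lowest vehicle library, a median of 365.6 and 546.7 in the highest. In the β-NMN libraries the lowest level was 17.16 CPM, the median 19.82 and the highest 24.99. All β-NMN libraries thus lay far below all vehicle libraries, and the β-NMN group was the tighter, with 20.1 ± 2.96 CPM against 396 ± 124 (SD, n = 6 each). The log2 fold change was −4.30 (standard error 0.206, 95% interval −4.74 to −3.86), or 19.7-fold lower, with an adjusted p of 4.19e-09 by edgeR's quasi-likelihood test. Ddit4 was 5th of all genes tested by p and 43rd by size among the falls. An exact two-sided permutation test over the 12 libraries gave p = 0.00216, the smallest that 6 against 6 can give. Without any 1 library the log2 fold change was between −4.42 and −4.15.

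The transcription factors of the response fell too, with smaller fold changes than Ddit4. Atf4 (chr15:80255184-80257541), which encodes the central factor, had 408.8, 454.9 and 611.6 CPM as the lowest, median and highest vehicle level, and 224.6, 259.3 and 462 in β-NMN cells. Its log2 fold change was −0.76 (standard error 0.17, adjusted p = 0.0017). Ddit3 (chr10:127290774-127296288), which encodes the pro-apoptotic factor CHOP, had 112.6, 129.6 and 208.3 CPM in vehicle cells and 45.6, 52.8 and 123 in β-NMN cells. It fell by 1.23 on the log2 scale (adjusted p = 7.41e-04). Atf5 (chr7:44812256-44816658), a related factor tied to mitochondrial stress, had 40.2, 47.4 and 91.5 CPM in vehicle cells against 16.2, 20.3 and 34.5, and fell by 1.39 on the log2 scale (adjusted p = 1.59e-04). The groups of Atf5 did not overlap, whereas 5 of 6 β-NMN libraries lay below all vehicle libraries for Atf4 and for Ddit3, and β-NMN replicate 6 did not. The exact two-sided permutation p over 6 against 6 libraries was 0.0108 for Atf4, 0.00866 for Ddit3 and 0.00216 for Atf5.

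The genes of feedback and redox control fell as well. Trib3 (chr2:152337422-152344032), whose pseudokinase restrains ATF4 and AKT, went from 55.1, 64.8 and 100.3 CPM (lowest, median and highest) to 31, 35.8 and 83.9, a log2 fold change of −0.78 (adjusted p = 0.0132). Ppp1r15a (chr7:45522916-45526268), which encodes GADD34, the stress-induced subunit of the phosphatase that reverses eIF2 phosphorylation, went from 419.0, 442.4 and 573.9 CPM to 170.5, 223 and 488.5, a log2 fold change of −0.87 (adjusted p = 0.00309). For both genes the β-NMN libraries other than replicate 6 lay below the vehicle range. Chac1 (chr2:119351229-119354381), which encodes an enzyme that degrades glutathione, had 9.93, 12.2 and 25.9 CPM in vehicle cells and 2.52, 3.29 and 8.87 in β-NMN cells. Its log2 fold change of −1.95 (standard error 0.33, adjusted p = 1.98e-04) was next to that of Ddit4 in size among the 10 genes, and its groups did not overlap.

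The amino acid enzymes split. Asns (chr6:7675169-7693254), which makes asparagine, had 87.8, 108.3 and 144.9 CPM in vehicle cells and 64.7, 68.8 and 107.9 in β-NMN cells, and fell by 0.59 on the log2 scale (adjusted p = 0.00471). Psat1 (chr19:15904678-15947337), the aminotransferase of serine synthesis, had 35.8, 40.0 and 46.3 CPM against 39.3, 44.7 and 51.2. Its log2 fold change of 0.14 was not called (95% interval −0.04 to 0.33, adjusted p = 0.19), so that a fall of the size seen in Asns lay outside its interval. Without vehicle replicate 3, Psat1 was called as higher, with a log2 fold change of 0.22 (adjusted p = 0.0396).

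Beside Ddit4, Sesn2 is the other inhibitor of mTORC1 in the set, a sensor of leucine that is induced by ATF4 and p53. Sesn2 (chr4:132492032-132510501) had 56, 74.3 and 117.8 CPM in vehicle cells as lowest, median and highest level, and 21.2, 27.5 and 63.1 in β-NMN cells. It fell by 1.39 on the log2 scale (standard error 0.263, adjusted p = 5.02e-04), and its groups overlapped at β-NMN replicate 6 and vehicle replicate 1. Across the 10 genes, Ddit4, Chac1 and Atf5 had all 6 β-NMN libraries below all 6 vehicle libraries, and 2092 of the 14985 genes tested (14.0%) did so.

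The libraries were not alike within each group. Among the vehicle libraries, replicates 3 and 4 had the highest CPM of Atf4, Ddit3, Atf5, Trib3, Ppp1r15a, Chac1, Asns and Sesn2, whereas Ddit4 was highest in replicates 2 and 3. Among the β-NMN libraries, replicate 6 had the highest CPM of those same 8 genes and of Psat1. At 9 of the 10 genes the other 5 β-NMN libraries lay below the whole vehicle range, and at 6 of these 9, which were Atf4, Ddit3, Trib3, Asns, Sesn2 and Ppp1r15a, replicate 6 reached into that range. Over all genes tested, the other 5 β-NMN libraries were clear of the vehicle range at 5094 genes, and replicate 6 fell inside the range at 1107 of them (21.7%), against 2.4% to 7.06% for the other β-NMN libraries taken the same way. Vehicle libraries were not all close to their group either. Vehicle replicate 3 fell inside the β-NMN range at 17.2% of the genes where the other vehicle libraries were clear of it, and vehicle replicate 1 at 10.9%, with 0 and 1 (Sesn2) of the 10 genes among them. The SD from the rest of the group was 0.643 for vehicle replicate 3 and 0.614 for β-NMN replicate 6. Without replicate 6 the 9 genes were called all the same, with log2 fold changes from −0.69 for Asns to −2.29 for Chac1 and −4.23 for Ddit4.

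Ddit4 did not follow the other genes in that library. Replicate 6 had 462 CPM of Atf4, above the vehicle median of 454.9, and 17.17 CPM of Ddit4, against 17.16 in the lowest β-NMN library. The number of Ddit4 reads per Atf4 read, into which no scaling enters, was 0.0372 in this library and 0.0623 to 0.105 in the other β-NMN libraries. In the vehicle libraries it was between 0.566 and 1.20. The plot of Ddit4 against Atf4 shows this library apart from both groups, at a vehicle level of Atf4 and a β-NMN level of Ddit4.

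**Figure D2:**
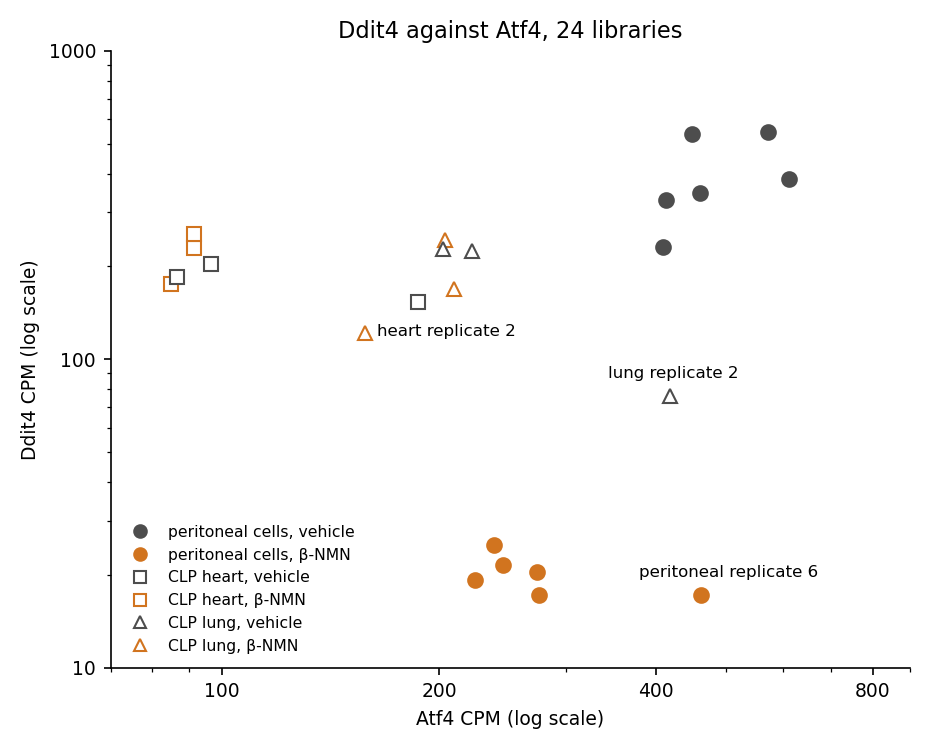
Ddit4 CPM against Atf4 CPM, both on log scales, for all 24 libraries, with filled circles for peritoneal cells, open squares for hearts and open triangles for lungs, grey for vehicle and orange for β-NMN. Peritoneal cells, hearts and lungs were each normalized separately. The β-NMN peritoneal libraries lie between 17.16 and 24.99 CPM of Ddit4 whatever their Atf4 level, and vehicle replicate 2 stands to the right of its organ in heart and lung.

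Compared per length of exons (RPKM, from CPM and the union of exons in GENCODE M21), the order of the genes changed with treatment. In vehicle cells Ddit4 was first with 226 ± 70.6 RPKM, followed by Atf4 with 206 ± 36.2, Ppp1r15a with 160 ± 19.9 and Ddit3 with 86.8 ± 24.2 (SD, n = 6 each). The ranges of Ddit4 and Atf4 overlapped, as did those of Atf4 and Ppp1r15a. Asns, Trib3, Atf5 and Sesn2 followed, at 41.1, 34.4, 28.6 and 24 RPKM with overlapping neighbours, and Psat1 and Chac1 were lowest at 9.58 and 9.57. In β-NMN cells Atf4 was first with 122 ± 37.4 RPKM and Ddit4 was in place 6 with 11.4 ± 1.69, within the ranges of Atf5 and Psat1.

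Promoter sequences were read to describe which of the 10 genes hold a binding element for ATF4. Because the 10 were chosen as genes of this response, their share with the element is no test of whether they moved together. The windows are those of RefSeq on GRCm38.p6, from 250 bases before to 50 bases after each start, and all 10 genes had at least 1. The element searched, on both strands, was the C/EBP-ATF response element TGATGNAA, to which ATF4 binds with C/EBP partners, and the cyclic AMP element TGACGTCA was searched in the same way. The first was in the window of Chac1, Asns and Trib3, which is 3 of the 10 genes, and 4.51% of all 27025 genes had it in a window. The second was in the window of Ppp1r15a, 1 of the 10 genes, and 2.03% of all genes had it in a window. Counted by window, the shares were 3.97% and 1.79% of all 32851 windows. Shown are the 4 genes with a match and, for contrast, Ddit4, with bases that lie before the gene in both RefSeq and GENCODE M21, except for Asns and Trib3, where 30 bases around the match are given because the 2 annotations place the start on different sides of it. Each runs 5′ to 3′ on the strand of the gene, and capitals mark the match, which in Chac1 and Trib3 is read on the opposite strand.
Chac1, chr2:119350992-119351228: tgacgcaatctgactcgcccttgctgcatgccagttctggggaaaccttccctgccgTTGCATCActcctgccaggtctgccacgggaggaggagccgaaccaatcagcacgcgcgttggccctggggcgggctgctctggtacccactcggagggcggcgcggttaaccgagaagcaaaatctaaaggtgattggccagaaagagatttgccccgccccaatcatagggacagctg
Asns, chr6:7693214-7693243: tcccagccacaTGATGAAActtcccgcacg
Trib3, chr2:152344028-152344057: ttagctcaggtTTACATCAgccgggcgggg
Ppp1r15a, chr7:45526269-45526368: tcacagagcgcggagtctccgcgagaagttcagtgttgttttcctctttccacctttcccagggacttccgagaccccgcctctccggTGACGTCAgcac
Ddit4, chr10:59951835-59952020: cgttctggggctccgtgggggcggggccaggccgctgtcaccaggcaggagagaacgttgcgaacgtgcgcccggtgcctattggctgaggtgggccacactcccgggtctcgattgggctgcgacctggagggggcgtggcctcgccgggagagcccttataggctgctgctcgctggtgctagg

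From the RefSeq start, the match of Chac1 begins 193 bases before it, that of Asns 23 bases before, that of Ppp1r15a 12 bases before, and that of Trib3 at base 15 of the transcript. From the start of the GENCODE M21 gene, whose positions are the ones given for each gene, Chac1 has its match 180 bases before, Ppp1r15a 12 bases before and Trib3 14 bases before, while in Asns it begins at base 23 of the gene. Whether the Asns and Trib3 matches lie before or inside the gene therefore differs between the annotations. The other 6 genes held neither set of letters in these windows, which says nothing of sites elsewhere. Of the 315 tested genes with TGATGNAA in a window, 102 (32.4%) were called lower in peritoneal cells, and of the 10345 without it 3044 (29.4%) were. For TGACGTCA these were 130 of 374 (34.8%) with it and 3016 of 10286 (29.3%) without it. In the pathway lists described next, which were compiled with earlier results of these data known, 15 of 79 genes (19.0%) had TGATGNAA in a window. Of those tested in peritoneal cells, 9 of 14 with it (64.3%) and 27 of 62 without it (43.5%) were called lower, and 0 of the 79 genes had TGACGTCA. These shares are descriptions, and their differences were not tested. A match is a description of the letters and not of binding.

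Other genes of the pathway were taken from lists compiled for this response, and their peritoneal changes are plotted by list. The eIF2 kinases and the eIF2 machinery did not move one way. Of 16 genes tested, 3 were higher, 4 lower and 9 not called, with a median log2 fold change of −0.08. Beside them, 23.7% of all genes tested in peritoneal cells were called higher and 27.9% lower. On the log2 scale Eif2ak4 (GCN2, the sensor of uncharged tRNA) was higher at 0.49 and Eif2ak3 (PERK, the sensor of the endoplasmic reticulum) lower at −0.52, with adjusted p of 0.00283 and 0.00947. Eif2ak1 (HRI, the heme sensor) was lower at −0.22 (adjusted p = 0.0213), and the −0.37 of Eif2ak2 (PKR) was not called (adjusted p = 0.0553). Impact, an inhibitor of GCN2, was lower (−0.60), as was Ppp1r15b (−0.43), the constitutive partner of Ppp1r15a, while Eif2s1, which encodes the phosphorylated subunit of eIF2, was higher (0.48), as was Oma1 (0.42), a mitochondrial protease.

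**Figure D3:**
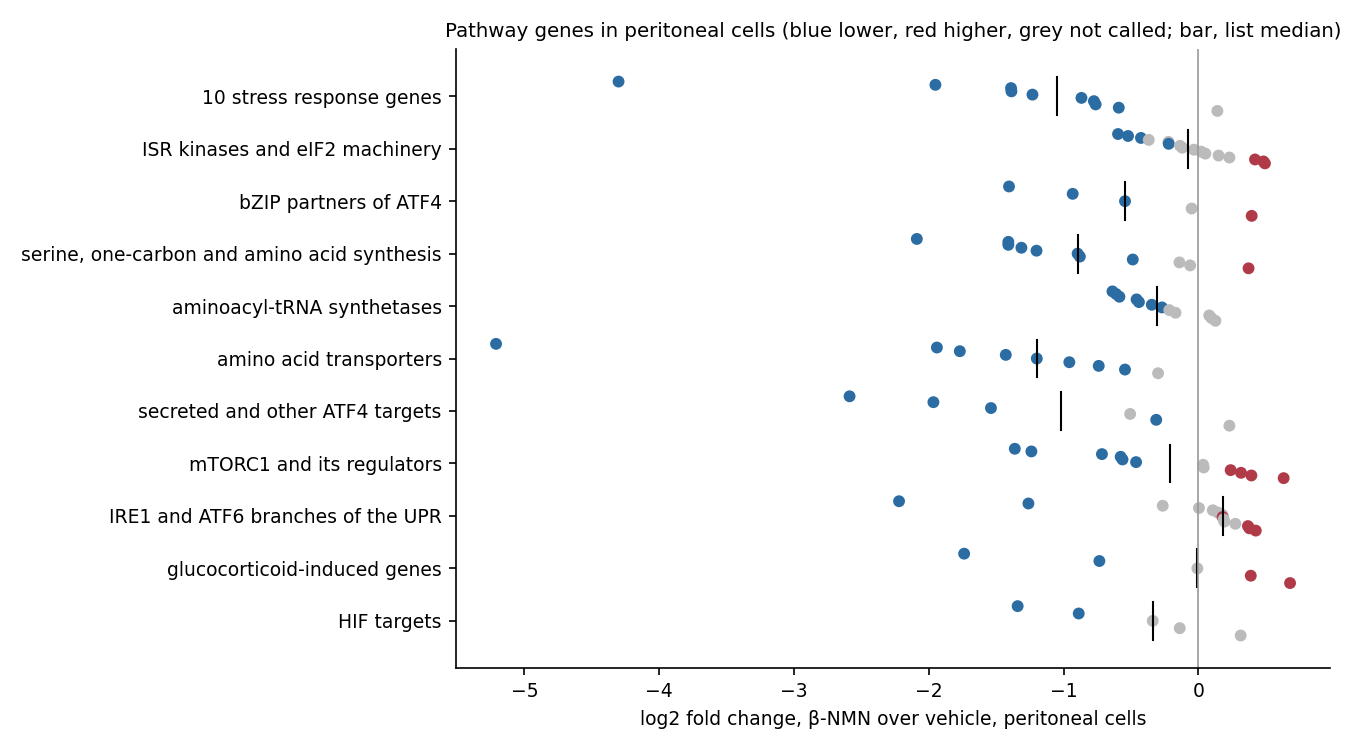
Log2 fold change, β-NMN over vehicle, in peritoneal cells for the 10 genes and for 10 lists of related genes, 1 point per gene, coloured by the call of edgeR's quasi-likelihood test, with a bar at the median of each list. Amino acid transporters lie furthest to the left among the lists with a median of −1.20, and the genes of the IRE1 and ATF6 branches have a median of 0.18.

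Most genes of amino acid supply, which ATF4 is known to induce, were called lower. Over all genes tested in peritoneal cells, 27.9% were called lower and 23.7% higher. Of 9 amino acid transporters, 8 were lower and 0 higher, with a median log2 fold change of −1.20. Slc7a11, the cystine importer that feeds glutathione synthesis, went from 311.5 to 832.2 CPM in vehicle cells to 8.23 to 21.4 in β-NMN cells, a log2 fold change of −5.21 (standard error 0.333, adjusted p = 3.21e-08) and 37-fold lower. Slc7a3 (−1.94) and Slc6a9 (−1.77) fell as well. Of 11 genes of serine, one-carbon and amino acid synthesis, 8 were lower and 1 higher (median −0.90). The largest falls were those of Cth (−2.09), which makes cysteine, Mthfd1l (−1.41) and Pycr1 (−1.41), and Slc25a32, a folate carrier, was higher (0.37). The level of Cth was low, with 0.438 to 1.74 CPM in vehicle cells and 0.121 to 0.402 in β-NMN cells. Of 12 aminoacyl-tRNA synthetases, 7 were lower and 0 higher (median −0.31), led by Iars (−0.64), Tars (−0.61) and Mars1 (−0.59). Of 6 secreted and other ATF4 targets, 4 were lower and 0 higher (median −1.02), led by Stc2 (−2.59), Vldlr (−1.97) and Adm2 (−1.54), all 3 of which had at most 3.48 CPM in any peritoneal library.

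Among the bZIP partners of ATF4, 3 of 5 were lower and 1 was higher, beside 27.9% and 23.7% of all genes tested. Cebpb, which encodes a dimer partner of ATF4 and a factor of macrophage activation, had 512.4 to 773.9 CPM in vehicle cells and 148.9 to 331.5 in β-NMN cells, with a log2 fold change of −1.41 (adjusted p = 1.99e-05). Jdp2 (−0.93) and Nfil3 (−0.54) were lower. Atf3, itself a target of ATF4, was higher, with 1226 to 2059 CPM in vehicle cells and 1923 to 2303 in β-NMN cells, a log2 fold change of 0.40 (adjusted p = 0.00844).

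For the unfolded protein response beyond PERK, 4 of 14 genes of the IRE1 and ATF6 branches were higher and 2 were lower (median 0.18). The 6 calls became 3 without β-NMN replicate 2 and at most 7 without another library. As a background for each list in this paragraph, 23.7% of all peritoneal genes tested were called higher and 27.9% lower. Herpud1 (−2.22) and Dnajb9 (−1.26), which act in the clearance of misfolded proteins, were lower, and Sdf2l1 (0.43), Hsp90b1 (0.38) and Creld2 (0.37) were higher. Around mTORC1, on which Ddit4 acts, 4 of 12 genes were higher and 6 lower (median −0.21). Akt1s1, which encodes the inhibitor PRAS40, fell by 1.36 on the log2 scale, the arginine sensor Castor1 by 1.24 and Sesn1 by 0.72. Castor1 was low, with at most 2.765 CPM in any peritoneal library. Deptor (0.63), Tsc2 (0.39) and Rptor (0.32) were higher. For the other inducers of Ddit4, of 5 glucocorticoid-induced genes 2 were higher, Tsc22d3 (0.68) and Fkbp5 (0.39), and 2 lower, Per1 (−1.74) and Sgk1 (−0.73). Of 5 targets of the hypoxia factor HIF, 2 were lower, Vegfa (−1.34) and Egln3 (−0.89), and 0 were higher. The adjusted p of Egln3 was 0.0433, and 1 of the 5 was called by DESeq2 and in several fits that left out a library.

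Markers of cell types differed between the peritoneal groups, in which 27.9% of all genes tested were called lower and 23.7% higher. The summed level of 7 macrophage markers was 5620 to 8547 CPM in vehicle cells and 10570 to 12140 in β-NMN cells, with 3 markers higher and 0 lower. That of 6 neutrophil markers was 476.7 to 989.3 CPM against 326.8 to 455.7, with 1 higher and 5 lower. This sum came mostly from Csf3r, which macrophages also express (log2 fold change −0.58), whereas S100a8 (−5.00), S100a9 (−5.31), Ly6g (−4.77) and Cxcr2 (−4.10) fell by amounts near that of Ddit4 and Retnlg was higher (1.38). The sum of 5 T cell markers was 3.91 to 16.5 CPM against 1.88 to 4.16, with all 5 lower. Of 4 B cell markers, 2 were lower, and 3 of 3 red blood cell markers were higher, at 2.69 to 33.1 CPM against 44.6 to 115. The part of these cells in the changes of the 10 genes was not tested. In β-NMN replicate 6 the macrophage sum was 10570 CPM, the lowest of its group, and the neutrophil sum 455.7 CPM, the highest of its group, and both were outside the vehicle range.

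In hearts and lungs after CLP, none of the 10 genes was called between treatments by edgeR's quasi-likelihood test, as the plot of fold changes shows. At an unadjusted p below 0.05, 1 gene of the 10 (Asns) was counted in hearts and 0 in lungs, beside 11.3% and 1.77% of all genes tested, and DESeq2 called 0 of the 10 in either organ. Over all genes, 0 of 16245 (0.0%) were called in hearts and 0 of 17008 (0.0%) in lungs by edgeR, against 262 and 9 by DESeq2. The median log2 fold change of the 10 genes was −0.38 in hearts and −0.03 in lungs, beside −0.01 and 0.00 over all genes tested. Without vehicle replicate 2 the medians of the 10 genes were 0.014 in hearts and −0.087 in lungs. For 3 animals against 3 an exact permutation test cannot go below 0.1.

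**Figure D4:**
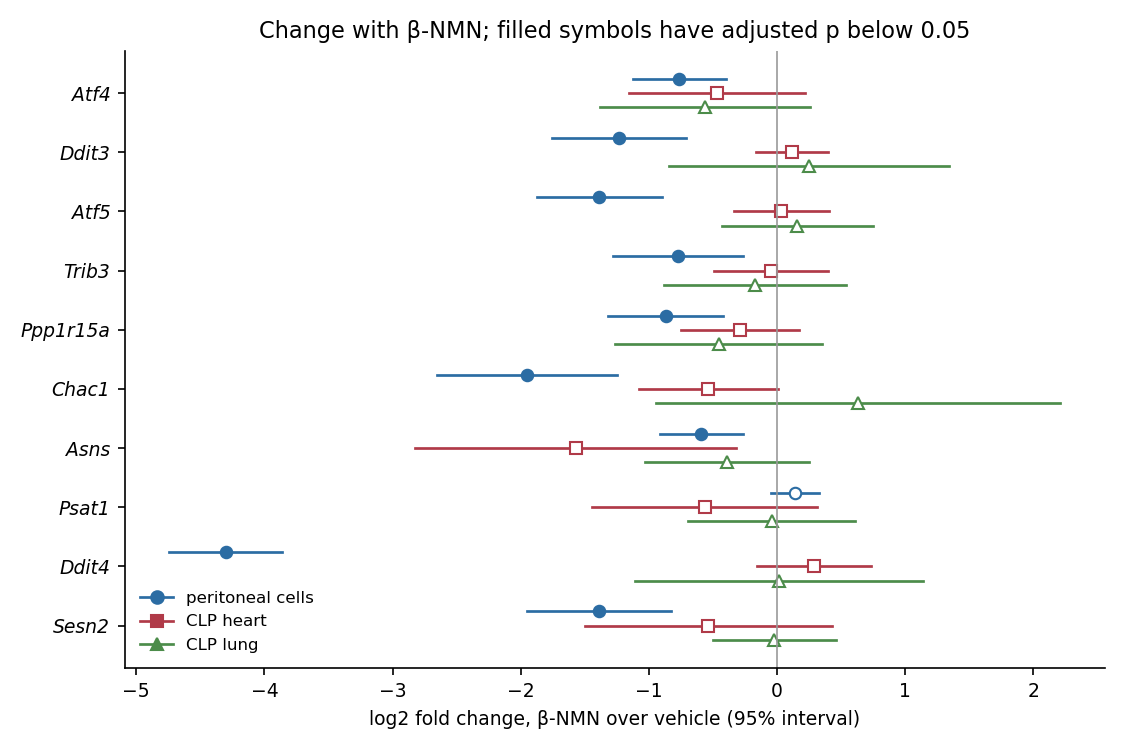
Log2 fold change of β-NMN over vehicle with its 95% interval for each gene in peritoneal cells (circles), CLP hearts (squares) and CLP lungs (triangles), with filled symbols for an adjusted p below 0.05 by edgeR's quasi-likelihood test. In peritoneal cells 9 of the 10 points are filled, and in hearts and lungs 0 are.

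**Figure D5:**
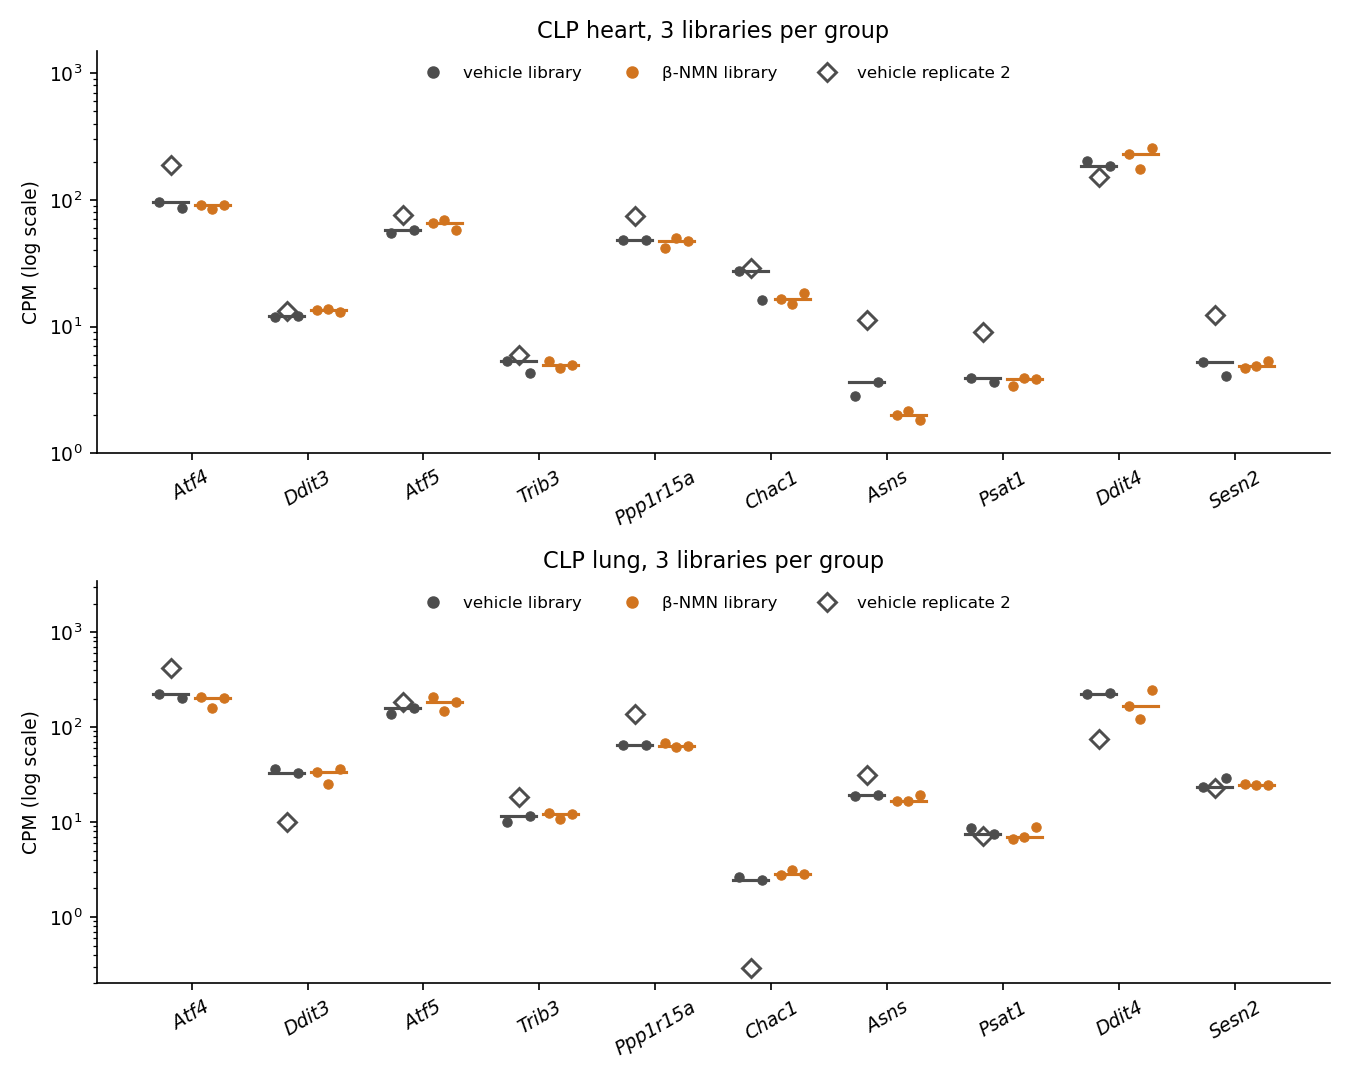
CPM on a log scale of the 10 genes in hearts (top) and lungs (bottom), 1 point per library, 3 vehicle (grey) and 3 β-NMN (orange) mice, with a bar at each group's median. Vehicle replicate 2 (open diamond) is the highest library of both organs at Atf4, Asns, Ppp1r15a and Trib3 and the lowest at Ddit4.

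Ddit4 had 204.2, 152.8 and 184.9 CPM in the hearts of vehicle replicates 1 to 3 and 230.1, 175.6 and 254.8 in those of β-NMN replicates 1 to 3. The groups overlapped, and the log2 fold change of 0.29 had a 95% interval of −0.16 to 0.73 (adjusted p = 0.507). In lungs it had 224.0, 75.8 and 228.2 CPM in vehicle mice and 168.5, 121.7 and 244.2 in β-NMN mice, a log2 fold change of 0.02 (−1.11 to 1.14, adjusted p = 0.998). Without vehicle replicate 2 the log2 fold change was 0.17 in hearts and −0.34 in lungs. A fall of the size measured in peritoneal cells lay outside both intervals. However, the tissues were normalized separately, the number of doses differed between the models, and the difference between models was not tested.

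Atf4 had 96.5, 187.1 and 86.5 CPM in vehicle hearts and 91.4, 84.8 and 91.4 in β-NMN hearts, with a log2 fold change of −0.47 (−1.16 to 0.22, adjusted p = 0.492). In lungs it had 221.8, 418.7 and 202.3 CPM against 209.6, 157.9 and 203.5 (log2 fold change −0.56, −1.38 to 0.26, adjusted p = 0.969). In both organs only vehicle replicate 2 stood above all other libraries, and without it the log2 fold changes were −0.04 and −0.16.

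Asns had the smallest p of the 10 genes in hearts, 0.021 before adjustment. It had 2.83, 11.3 and 3.67 CPM in vehicle hearts and 2.01, 2.14 and 1.83 in β-NMN hearts, so all β-NMN hearts lay below all vehicle hearts, which held for 1 of the 10 genes in hearts while 23.1% of all heart genes did not overlap in either direction. The log2 fold change was −1.57 (−2.82 to −0.32, adjusted p = 0.435, exact two-sided permutation p = 0.1). Without vehicle replicate 2 it was −0.71. In lungs Asns had 18.9, 31.2 and 19.1 CPM against 16.6, 16.8 and 19.2, and the groups overlapped. Its lung log2 fold change was −0.39, and −0.12 without vehicle replicate 2.

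Chac1 had values of opposite sign in the organs, with wide intervals. In hearts it had 27.2, 29 and 16.3 CPM in vehicle mice and 16.5, 15.1 and 18.5 in β-NMN mice (log2 fold change −0.54, −1.08 to 0.00, adjusted p = 0.435). In lungs it was near the floor of detection in vehicle replicate 2, with 2 reads or 0.289 CPM, beside 2.63 and 2.44 CPM in the other vehicle lungs and 2.74, 3.09 and 2.82 in β-NMN lungs. All β-NMN lungs thus lay above all vehicle lungs, which held for Chac1 alone of the 10 genes and in either direction for 8.21% of lung genes. The log2 fold change was 0.63 (−0.95 to 2.21, adjusted p = 0.969) and 0.19 without vehicle replicate 2.

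The remaining genes were not called either. In hearts the log2 fold changes were −0.56 for Psat1, −0.54 for Sesn2, −0.29 for Ppp1r15a, −0.05 for Trib3, 0.03 for Atf5 and 0.12 for Ddit3. The first 3 rested on vehicle replicate 2, without which they were −0.022 for Psat1, 0.085 for Sesn2 and −0.059 for Ppp1r15a, and Trib3 was 0.049 and Atf5 0.18. In lungs the log2 fold changes were −0.46 for Ppp1r15a, −0.17 for Trib3, −0.04 for Psat1, −0.02 for Sesn2, 0.16 for Atf5 and 0.25 for Ddit3. Without vehicle replicate 2 they were −3.95e-04 for Ppp1r15a, 0.13 for Trib3, −0.099 for Psat1, −0.075 for Sesn2, 0.28 for Atf5 and −0.13 for Ddit3. Ddit3 in vehicle replicate 2 had 10.1 CPM in lung, against 25.3 to 36.6 CPM in the other 5 lungs.

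The mouse of vehicle replicate 2 thus combined high Atf4 with low Ddit4 in both organs. Its heart and lung had 0.817 and 0.181 Ddit4 reads per Atf4 read, whereas the other 5 hearts had 2.07 to 2.79 and the other 5 lungs 0.771 to 1.20. Its lung library was the shallowest, with 8915366 counts. Its macrophage marker sum in lung was 1342 CPM against 3982 to 5477 in the other lungs, its adipocyte sum 242.7 against 5.76 to 62.5 and its red blood cell sum 7043 against 1497 to 3096. In heart its cardiomyocyte sum was 28700 CPM against 46390 to 53750, and its adipocyte sum 74.1 against 0.155 to 15.7. The part of these differences in the stress response genes was not tested.

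The pathway lists gave no call in either organ by edgeR's quasi-likelihood test, with 0 of 94 tested genes in hearts and 0 of 94 in lungs. At an unadjusted p below 0.05 there were 14 and 4 of them, beside the same 11.3% and 1.77% of all genes, and DESeq2 called 1 in hearts (Gdf15, adjusted p = 0.00328) and 0 in lungs. By edgeR the smallest p values were those of Gdf15 in hearts, a stress cytokine with 1.21, 1.45 and 0.902 CPM in vehicle mice and 3.13, 3.07 and 2.51 in β-NMN mice (log2 fold change 1.28, adjusted p = 0.435), and of Nfil3 in lungs (−0.91, adjusted p = 0.969). In hearts Cebpb (−0.46), Dnajc3 (−0.57), Vegfa (0.90), Aldh1l2 (−1.003), Slc7a11 (−4.23), Ppp1r15b (−0.52), Sesn3 (−0.38), Fkbp5 (−0.44) and Mars1 (0.22) came first in their lists. Slc7a11 had 11.7 CPM in the heart and 85.7 CPM in the lung of vehicle replicate 2, and no more than 0.873 and 1.89 CPM in the other hearts and lungs. In lungs Slc7a11 (−4.34), Mthfd1l (−1.14), Tars (−0.58), Stc2 (−0.78), Eif2ak2 (−1.27), Sesn3 (0.45), Herpud1 (−0.32), Sgk1 (−0.52) and Vegfa (0.51) came first in theirs. The other kinases had log2 fold changes between −0.72 (Eif2ak2) and 0.05 (Eif2ak1) in hearts and between −0.04 (Eif2ak3) and 0.26 (Eif2ak4) in lungs, Atf3 had −0.93 in hearts and −0.07 in lungs, and in lungs Cebpb had −1.71 and Ppp1r15b −0.18. Lung Cebpb was 1175 CPM in vehicle replicate 2 and 115.3 to 261.8 CPM in the other lungs. Without this mouse no gene of the lists was called by edgeR either, and many values were smaller. In hearts Slc7a11 was then −1.59, Aldh1l2 −0.58, Ppp1r15b −0.27, Atf3 −0.40, Eif2ak1 0.03 and Eif2ak4 −0.04, whereas Gdf15 was 1.43 and Eif2ak2 −0.79. In lungs Slc7a11 was −0.21, Cebpb −0.46, Eif2ak2 −0.45, Mthfd1l −0.38, Tars −0.17, Sgk1 −0.13, Vegfa 0.14, Herpud1 −0.17, Eif2ak1 −0.0049, Eif2ak3 −0.17, Eif2ak4 0.16, Atf3 −0.27 and Ppp1r15b −0.042, whereas Nfil3 was −0.77 and Stc2 −0.81.

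Some of the 10 genes differed between the organs themselves, as did 11590 of all 17772 genes tested. Comparing heart with lung over the 12 CLP libraries with treatment as a term, 2 of the 10 were higher in hearts and 4 lower, beside 29.3% and 35.9% of the 17772 genes tested. Chac1 was 13.2-fold higher in hearts, with a log2 difference of 3.72 (standard error 0.373, adjusted p = 2.24e-06 by edgeR's quasi-likelihood test), and every heart lay above every lung. Ddit4 was higher in hearts by a log2 difference of 0.82 (adjusted p = 0.0197). Asns was lower in hearts by a log2 difference of −1.87 (adjusted p = 4.46e-04), Sesn2 by −1.39, Atf5 by −0.75 and Trib3 by −0.62. The median log2 difference over all genes was −0.13. The −0.47 of Atf4 was not called (adjusted p = 0.0731), but with the mouse as a block, since both organs came from the same animals, it was −0.475 with an adjusted p of 0.00672. Without the heart of vehicle replicate 2 alone Atf4 was called (−0.55), and without its lung alone Ddit3 (−0.71) and Ppp1r15a (0.30) were. Without both libraries of vehicle replicate 2, which was tried after seeing the data, 9 of the 10 genes were called, with Atf4 (−0.38), Ddit3 (−0.60) and Ppp1r15a (0.31) added. Over all genes, 13819 of 17969 were called in that fit, against 11590 of 17772 with all libraries.

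Per exon length, Ddit4 was first among the 10 genes in hearts of both groups, with 103 ± 14.8 RPKM in vehicle mice and 125 ± 23.1 in β-NMN mice (SD, n = 3 each), above the ranges of all the others. In lungs the ranges of Ddit4, Atf4 and Atf5 overlapped, at 100.3, 119 and 80.4 RPKM in vehicle mice. Chac1 was in place 5 in hearts and last in lungs. A difference in the effect of β-NMN between the organs was called at 0 of the 10 genes by the interaction term of edgeR's quasi-likelihood test, and at 0 of all 18318 (0.0%). At an unadjusted p below 0.05 the count was 0 of the 10 genes and 797 of all, and DESeq2 called 0 of the 10 and 14 of all. The smallest adjusted p among the 10 was 0.96, and the interval of the difference reached from −2.51 to 0.11 for Asns.

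The genes whose levels followed Ddit4 most closely were sought by the Pearson r of log2 CPM after removing group means, as a description. Over the 12 peritoneal libraries and 8291 genes they were Slc25a30 (r = 0.937), Mt1 (0.934), Rab14 (0.93), Btg3 (0.924) and Csnk1a1 (0.912), none of them among the 10 genes or the lists. Over the 12 CLP libraries and 11103 genes they were Sema7a (0.974), Ms4a6d (0.971), Bag2 (0.955), Phyhd1 (0.948) and Eif4ebp1 (0.942), the last of which is a target of ATF4 and a substrate of mTORC1. The libraries share depth and preparation, and in the CLP set vehicle replicate 2 lies at the low end of Ddit4 in both organs.

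Parts of some genes overlap others. Of the exon length of Atf5, 4.11% is shared with Nup62 and Il4i1 on the opposite strand, and of that of Ddit3 3.97% with Mars1 (Mars in GENCODE M21) and 0.759% with Gm4189. Ppp1r15a shares 12 bases with Tulp2. No source used here states the strand setting of the counting, so reads from those bases cannot be assigned to 1 gene. The overlapping genes Nup62 (−0.52), Il4i1 (−1.28) and Tulp2 (−1.34) were themselves lower in peritoneal cells.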

How the data were processed

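The authors deposited 1 table of raw read counts per gene symbol for each model, without normalization. Per the labels and the methods, poly(A) RNA was sequenced on a NovaSeq, mapped to mm10 with STAR (2.7.3a per the labels) and counted with featureCounts 2.0.0. The annotation and strand setting are not given in the sources used here. Replicate number 3 stands on both of 2 β-NMN hearts, of which the heart sharing a mouse with lung 2 took number 2.

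From these counts, edgeR 4.0.16 in R 4.3.3 gave a separate fit for peritoneal cells, hearts and lungs and a joint fit for both organs (filterByExpr, TMM, the legacy quasi-likelihood test, Benjamini-Hochberg over all genes tested). Log2 CPM used a prior count of 2. The tests were also run on simulated counts, and the outcome of those runs is not given here. Also tried were DESeq2 1.42.0 as the test, its scaling within edgeR, all genes without a filter, edgeR's newer quasi-likelihood form, replicate or mouse blocks, and leaving out libraries. Gene positions and exon lengths are from GENCODE M21. The members and lists were chosen with earlier results of these data known. Named were the 10 genes, per list and tissue the 3 largest called rises and falls or otherwise the smallest p, the 4 kinases, Atf3, Cebpb, Ppp1r15b and the 5 genes most like Ddit4. Per the methods, 6 mice per peritoneal group were used, and the labels give each organ a mouse code, so replicates were taken as animals. The organs of a mouse are paired by the mouse code. Their deviations from the group means had r = 0.0638 to 0.171.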

Additional observations from a re-analysis of the deposited data

Results flagged for a closer look

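In the peritoneal cells of β-NMN replicate 6, 8 of the 10 genes stood apart from the other 5 β-NMN libraries by Dixon's criterion for 6 values. The levels were 462 CPM for Atf4 (next highest 275), 123 for Ddit3 (60.2), 83.9 for Trib3 (38.4), 8.87 for Chac1 (3.65), 108 for Asns (69.6), 63.1 for Sesn2 (29.0), 489 for Ppp1r15a (242) and 34.5 for Atf5 (22.6). Ddit4 and Psat1 did not stand apart in this library. In all, 8 of 20 groups held such a library, all of them this library, and chance alone gives about 1 in 20 groups, although the genes of a library are not independent.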

How the results depend on the processing

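With the peritoneal replicate number as a block, 9 of the 10 genes were called, as without it. Vehicle and β-NMN libraries share only a number, and the r of their deviations was −0.169 to 0.132 in peritoneal cells, 0.0735 to 0.241 in hearts and −0.518 to 0.304 in lungs, so that not every pair passed 0.1 in any tissue. The block changed no other count of called genes in hearts (0), lungs (0) or in the interaction (0), and with the mouse as a block 7 genes were called between organs. The count of called genes was 9 in peritoneal cells and 0 in hearts and lungs under all alternatives that kept all libraries. With 1 library left out, it was 9 to 10 in peritoneal cells, 0 in hearts, lungs and the interaction, and 6 to 8 between organs. Without both libraries of vehicle replicate 2, an alternative chosen after seeing the data, it was 9 between organs, beside 13819 of all 17969 genes tested. Signs changed only for genes that were not called. In those fits the log2 fold change ranged in hearts from −0.058 to 0.18 for Atf5, −0.16 to 0.049 for Trib3 and −0.81 to 0.085 for Sesn2. In lungs it ranged from −0.18 to 0.066 for Psat1, −0.13 to 0.55 for Ddit3, −0.34 to 0.26 for Ddit4, −0.33 to 0.13 for Trib3 and −0.075 to 0.12 for Sesn2. Between organs it ranged from −0.28 to 0.015 for Psat1. The interaction ranged from −0.27 to 0.51 for Atf4, −0.80 to 0.19 for Sesn2, −0.27 to 0.031 for Atf5, −0.75 to 0.11 for Psat1, −0.42 to 0.32 for Ddit3, −0.14 to 0.23 for Trib3 and −0.25 to 0.40 for Ppp1r15a. Of the counts of called genes in the pathway lists, 11 values moved by over 1.5 times, among them that of the HIF targets from 2 to 1 and that of the IRE1 and ATF6 genes from 6 to 3 without β-NMN replicate 2. For single genes of the 10, 8 values passed the threshold only in an alternative, all of them between organs except Psat1 in peritoneal cells without vehicle replicate 3. The cause of these changes was not tested. The depth of the shallowest lung, 8915366 counts, limits what can be seen at Chac1, which had 2 reads there.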
